A study of Mus musculus with 6 samples.

Results

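The ephrin, netrin and Slit-Robo guidance genes are the ligands and receptors of the classical contact and diffusible cues that steer growing axons. The set held 39 listed mouse genes, chosen by symbol: the ephrin ligands and their Eph receptors, the netrins and their receptors, and the Slits and their Robo receptors. Of these, 38 were matched by Ensembl identifier to a row of the count tables, out of 41388 rows in all. They comprised 15 ligands and 23 receptors. No measured value entered the choice of members by the rule, but the set was proposed with earlier results of these data in view. The listed symbol Ntn3 carried an identifier that was not a row of the tables, and it is described separately.

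The libraries came from dorsal root ganglia (DRG), the clusters of sensory neuron cell bodies beside the spinal cord, of C57BL/6 mouse embryos at 18.5 days post coitum. Ganglia of spinal levels T11-S1 were dissociated and EGFP-labelled cells were collected by flow sorting, with 3 female and 3 male libraries. All 6 libraries carried RetFloxedEGFP, in which Cre switches on EGFP at Ret, with the Cre driver Scn10a<tm2(cre)Jnw>, except that the genotype field of male C names RetFloxedEGFP only, while its title gives the Cre. Scn10a encodes Nav1.8, a sodium channel of nociceptors, so by design the sort was limited to cells in which this Cre had acted and Ret was active. Unsorted cells and embryos without these alleles are not analysed here. A pool of 40 ganglia from 2 embryos went into each female library and male A, 60 ganglia (3 embryos) into male B and 20 ganglia (1 embryo) into male C. Total counts ran from 15693013 in male C to 24033601 in female B, and genes with at least 1 read from 19526 in male C to 21755 in female C.

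The label of the sorted population was checked on 8 nociceptor markers, and all 8 had a mean of at least 1 RPKM (read counts scaled to gene length and library size), with Scn10a at 119 ± 16.8 RPKM and Ret at 27.8 ± 3.83 RPKM (SD, n = 6). Markers of other cells were present too, given as sums over each list. Satellite glia and Schwann cell genes lay between 385 RPKM in male B and 525 RPKM in male A. Fabp7 led them at 311 ± 56.1 RPKM, followed by S100b at 69.9 ± 18.5 RPKM. Sox10 was at 3.79 RPKM and Foxd3, the lowest of the list, at 0.494 RPKM. Fibroblast genes lay between 150 and 175 RPKM, most of it Dcn at 133 ± 13.8 RPKM. Col1a1 followed at 10.5 ± 6.71 RPKM, with Lum at 2.73, Pdgfra at 0.291 and Twist1, the lowest, at 0.0578 RPKM. Endothelial and pericyte genes summed to 13.4 to 18.8 RPKM, with the endothelial genes Pecam1, Cdh5 and Kdr at 0.400, 0.476 and 0.167 RPKM, and macrophage genes to 0.452 to 1.27 RPKM. Blood genes ranged from 28.6 RPKM in male C to 839 RPKM in male A. No marker list had a gene at 0 in all libraries. The part these cells play in the levels of the guidance genes was not tested, and in bulk libraries fewer cells of a type and less RNA per cell cannot be told apart.

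Ephrins are membrane-bound ligands. The ephrin-A proteins are held by a lipid anchor and bind mainly EphA receptor tyrosine kinases, while ephrin-B proteins cross the membrane and bind mainly EphB receptors, and contact can signal into both the receptor-bearing and the ligand-bearing cell. Netrins are laminin-related proteins that attract growth cones through DCC and neogenin and repel them through UNC5 receptors. Slits are large secreted proteins that act mostly as repellents through Robo receptors, and in the embryo they are best known for keeping axons from recrossing the midline and, for sensory axons, for branching. Sensory neurons of the DRG meet all 3 systems on their way to the skin and to the dorsal horn of the spinal cord.

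Promoter sequence is shown for 4 members of high or low level within a family. They are Efna5, next to Efna1 at the top of the ephrin-A ligands, against Efna4, the lowest of them, and Robo2, the leading receptor, against Robo3, which had no read. Each is the 250 bases before the annotated start (RefSeq, GRCm38.p6), written 5′ to 3′ on the gene's strand, with every CG dinucleotide in capitals. The windows are chr17:62881318-62881567 for Efna5, chr3:89338029-89338278 for Efna4, chr16:74411826-74412075 for Robo2 and chr9:37433176-37433425 for Robo3, all on the minus strand.
Efna5: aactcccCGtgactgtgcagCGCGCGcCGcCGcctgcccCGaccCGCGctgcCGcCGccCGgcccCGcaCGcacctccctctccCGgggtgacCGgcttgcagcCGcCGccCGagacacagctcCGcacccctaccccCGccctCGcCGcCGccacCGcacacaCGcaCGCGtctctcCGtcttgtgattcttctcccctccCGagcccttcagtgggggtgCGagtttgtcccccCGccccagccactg
Efna4: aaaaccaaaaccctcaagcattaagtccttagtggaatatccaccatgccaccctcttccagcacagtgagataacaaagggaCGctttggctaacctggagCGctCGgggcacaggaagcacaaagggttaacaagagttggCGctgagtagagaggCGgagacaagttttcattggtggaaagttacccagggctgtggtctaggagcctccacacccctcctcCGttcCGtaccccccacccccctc
Robo2: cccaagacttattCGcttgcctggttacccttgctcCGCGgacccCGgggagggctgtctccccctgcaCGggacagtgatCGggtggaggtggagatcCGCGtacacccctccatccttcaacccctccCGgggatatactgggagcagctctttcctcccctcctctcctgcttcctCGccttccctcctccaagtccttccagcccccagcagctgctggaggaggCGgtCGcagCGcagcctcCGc
Robo3: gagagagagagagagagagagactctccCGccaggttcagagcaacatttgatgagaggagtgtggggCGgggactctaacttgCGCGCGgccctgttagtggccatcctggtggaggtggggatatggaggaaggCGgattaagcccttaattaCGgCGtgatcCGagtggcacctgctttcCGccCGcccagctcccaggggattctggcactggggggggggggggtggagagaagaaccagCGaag

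The Efna5 window held 32 CG dinucleotides, and 4.58% of all 32851 windows in the table held at least as many. Efna4 held 7 (46.3% of windows had at least as many), Robo2 held 14 (29.4%) and Robo3 held 12 (33.5%). The unread Robo3 thus had nearly as many CG dinucleotides as Robo2, whereas the 2 ephrin-A windows shown lay far apart. Of the 38 matched members 33 had a window, and their median was 19 CG dinucleotides, with 32 of 33 at or above the median of 6 over all windows. The median was 22.5 in the 12 members with a mean of at least 1 RPKM and 16 in the 21 members under it. The range ran from 4 in Ntng2 to 46 in Epha8, a receptor with a mean of 0.0477 RPKM, so that a CG-rich window stood before both high and nearly unread genes. The letters TATAAA, on either strand, were found in the windows of Efnb2 and Slit2 and in 12.4% of all windows. The annotated starts differ in part from those of the deposited genes: 9 of the 33 windows (Efna1, Efna3, Epha10, Ephb3, Ephb6, Ntn4, Ntng1, Ntng2 and Slit3) overlapped the deposited gene, and those of Ntng2, Ntng1, Epha10 and Ntn4 lay wholly inside it. In the other 24 windows the median was 18 CG dinucleotides and the lowest count 7 (Efna4), with medians of 25 in the 8 members with a mean of at least 1 RPKM and 14.5 in the 16 under it. The window of Efna1, the highest ephrin-A ligand, is not shown because it overlapped the deposited gene. It held 16 CG dinucleotides, between the counts of Efna4 and Efna5.

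The guidance genes were low beside the genes that passed a count filter, with a few members well above the rest. The median of the members' mean levels was 0.556 RPKM over all 38, above the 0.0487 RPKM over all genes of the table. Over the 29 members that passed the count filter it was 0.868 RPKM, against 3.93 RPKM over all 15026 genes that passed. A mean of at least 1 RPKM was reached by 13 of 38 members, 6 of 15 ligands and 7 of 23 receptors. Over all genes of the table that share was 28% (11605 of 41388), so the members' share lay near the background. In 11 members the level was at least 1 RPKM in every library, and 9 members had a mean under 0.1 RPKM. The filter on low counts kept 29 of the 38 members, a larger share than the 15026 of 41388 over all genes. The 9 left out were Unc5a, Ephb1, Ntng2, Epha8, Ntn1, Epha1, Ntn4, Dcc and Robo3.

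**Figure D1:**
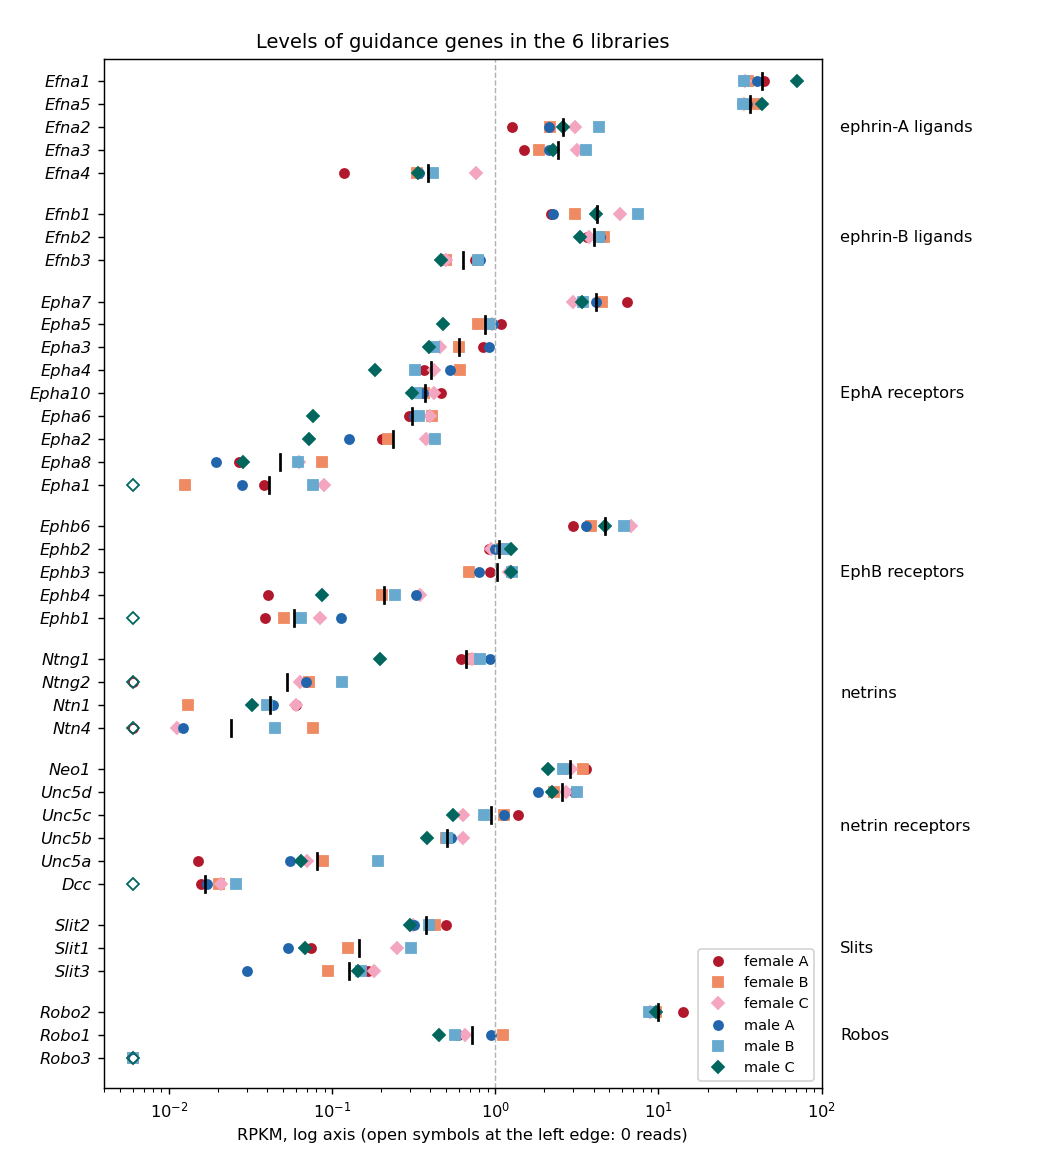
Level of each matched guidance gene in the 6 libraries, in RPKM on a log axis, by family, with a symbol for each library (open at the left edge where there were 0 reads), a bar for the mean and a dashed line at 1 RPKM. Efna1, Efna5 and Robo2 stand above the others, and Dcc, the netrins other than Ntng1, and Robo3 lie at or near 0.

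In RPKM, the ephrin-A ligands held the highest levels of the set. In reads, which are not divided by gene length, Robo2 led with 20067 over all libraries, before Efna5 with 18196 and Efna1 with 9368. Efna1, a ligand first known as an endothelial and inflammatory response gene, was at 44.7, 35.5 and 34.1 RPKM in females A to C and at 40.2, 33.7 and 70.5 RPKM in males A to C, a mean of 43.1 ± 14.1 RPKM (SD, n = 6). Male C stood above the other 5 libraries, which lay between 33.7 and 44.7 RPKM. Efna5, best known for mapping retinal axons in the midbrain, was at 34.4, 39.8 and 33.6 RPKM in the female libraries and 34.99, 33.0 and 42.9 RPKM in the male ones, a mean of 36.5 ± 3.97 RPKM. It varied least of all tested members, with a coefficient of variation (CV) of 10.9%, and its sexes overlapped. In the table of 41388 genes, Efna1 ranked 1443 and Efna5 ranked 1667.

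The other ephrin-A ligands followed at a distance. Efna2 was at 1.27, 2.17 and 3.09 RPKM in females A to C and 2.15, 4.31 and 2.59 RPKM in males A to C, lowest in female A and highest in male B. Efna3 had the same lowest and highest library, with a range from 1.5 to 3.59 RPKM and a mean of 2.42 ± 0.796 RPKM. Efna4 was the lowest ligand of the class at 0.385 ± 0.210 RPKM, on 3 to 29 reads per library. Efna1, Efna3 and Efna4 lie side by side on the minus strand of chromosome 3, within chr3:89271733-89338028, a stretch of 66.3 kb (gene coordinates are those of the deposited tables, GRCm38.p2), and their mean levels were 43.1, 2.42 and 0.385 RPKM. Exon bases are shared with a gene on the opposite strand by 2 of these rows, Efna3 with Gm15998 over 344 bases and Efna4 with 4731419I09Rik over 168 bases, which is 14.1% and 10.5% of their lengths. Whether counting used strand is not stated in the sources used here, so reads there cannot be assigned with certainty.

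Among the ephrin-B ligands, Efnb1 and Efnb2 were close in mean level and unlike in spread. Efnb1, an X-linked gene, was at 2.21, 3.08 and 5.84 RPKM in females A to C and at 2.26, 7.52 and 4.13 RPKM in males A to C, a mean of 4.18 ± 2.13 RPKM. Efnb2, the ligand known for its part in arteries and in vascular growth, was at 3.64, 4.67 and 3.78 RPKM and at 4.39, 4.34 and 3.28 RPKM, a mean of 4.02 ± 0.528 RPKM. Efnb1 was highest in male B and female C, while Efnb2 showed no such split. Efnb3, a midline ligand of the spinal cord, was lower, at 0.635 ± 0.161 RPKM.

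The Eph receptors gave moderate to low values, led by 1 gene in each class. Ephb6, a receptor whose kinase domain is inactive, was at 3.01, 3.84 and 6.81 RPKM in females A to C and 3.57, 6.16 and 4.69 RPKM in males A to C, a mean of 4.68 ± 1.51 RPKM. Epha7 was at 6.44, 4.49 and 2.99 RPKM and at 4.14, 3.44 and 3.41 RPKM, a mean of 4.15 ± 1.25 RPKM. The libraries in which Ephb6 was highest, female C and male B, were not those in which Epha7 was highest, female A and B.

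The remaining EphA receptors all had means under 1 RPKM, and Epha5 reached 1.09 RPKM in female A. Epha5 had a mean of 0.868 ± 0.214 RPKM, Epha3 of 0.604 ± 0.223 RPKM, Epha4 of 0.405 ± 0.150 RPKM, Epha10 of 0.374 ± 0.0585 RPKM, Epha6 of 0.307 ± 0.121 RPKM and Epha2 of 0.238 ± 0.139 RPKM. Epha4 is the receptor known for guiding motor axons in the limb and corticospinal axons, and Epha10 is a second member without an active kinase. Epha8 and Epha1 were barely read, with 30 and 18 reads over the 6 libraries. Epha7 thus stood well above Epha5, its nearest neighbour, in 6 of 6 libraries, by 2.13 ± 0.419 on the log2(RPKM + 0.1) scale.

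In the EphB class Ephb2 and Ephb3, receptors that act together in several commissures, had means of 1.06 ± 0.136 and 1.02 ± 0.251 RPKM. Ephb4, the venous partner of Efnb2, was at 0.207 ± 0.123 RPKM, and Ephb1 at 0.0584 ± 0.0387 RPKM on 51 reads in all. The mean of Ephb4 lay between those of the endothelial markers Kdr and Pecam1, and its source was not tested.

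The secreted netrins were barely read in the sorted cells. Ntn1, the founding secreted netrin of the floor plate, had 32 reads over all libraries, between 2 and 9 per library, and a mean of 0.0415 ± 0.0179 RPKM. Ntn4 had 13 reads in all. The GPI-anchored netrin-G genes do not bind DCC or UNC5 receptors but the netrin-G ligands of the Lrrc4 family. Ntng1 was the only netrin among the tested genes, at 0.619, 0.710 and 0.718 RPKM in females A to C and at 0.932, 0.810 and 0.196 RPKM in males A to C, lowest in male C. Ntng2 had 30 reads, and 558 bases of its row (13.98% of its length) are shared with 6530402F18Rik on the same strand. Of the netrin-G partners, Lrrc4c, which pairs with Ntng1, was at 12.4 ± 1.83 RPKM, and Lrrc4, which pairs with Ntng2, at 0.507 ± 0.124 RPKM.

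A row without a symbol lies at the position of Ntn3, at chr17:24203848-24209387 on the minus strand, where it overlaps the row of Tbc1d24. It was at 0.914, 1.09 and 1.13 RPKM in females A to C and at 1.37, 1.48 and 0.701 RPKM in males A to C, a mean of 1.12 ± 0.288 RPKM. Because the link rests on position alone and reads can be shared with Tbc1d24, the row is left out of all counts of members. With it, 14 members would reach 1 RPKM, and the sum of the netrins would be 1.90 ± 0.580 RPKM in place of 0.783 ± 0.302 RPKM.

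The netrin receptors differed by class. Dcc, the attractive receptor of commissural axons and the largest gene of the set at 1092332 bases on chromosome 18, had 18 reads over the 6 libraries, 0 in male C and 5 at most, a mean of 0.0166 ± 0.0089 RPKM. Neo1, its relative, which also binds the repulsive guidance molecules, was at 3.59, 3.45 and 2.91 RPKM in females A to C and 2.68, 2.58 and 2.11 RPKM in males A to C, a mean of 2.89 ± 0.556 RPKM. All 3 female values lay above all 3 male values.

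Of the UNC5 receptors, Unc5d was highest at 2.55 ± 0.524 RPKM, with values from 1.83 RPKM in male A to 3.18 RPKM in male B. Unc5c, the receptor first found through its mutant with misplaced cerebellar cells, was at 0.945 ± 0.323 RPKM and Unc5b, known from blood vessel guidance, at 0.509 ± 0.0834 RPKM. Unc5a had 45 reads over all libraries. Neo1, Unc5b, Unc5c and Unc5d were therefore the netrin receptors with enough reads to test.

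In the Slit-Robo system a single receptor held nearly all of the signal. Robo2 was at 14.1, 9.66 and 8.86 RPKM in females A to C and 8.74, 8.73 and 9.70 RPKM in males A to C, a mean of 9.96 ± 2.06 RPKM. Female A stood above the other 5 libraries, which lay between 8.73 and 9.70 RPKM. Robo1, with which Robo2 acts in keeping axons out of the midline, was at 0.592, 1.11 and 0.650 RPKM and at 0.943, 0.569 and 0.454 RPKM, a mean of 0.719 ± 0.252 RPKM. Robo2 made up 93.1% of the summed Robo level, from 89.7% to 96.0% by library. Robo3, a receptor of commissural neurons before midline crossing, had 0 reads in each of the 6 libraries, where 3 counts, the limit that a count of 0 allows, would be 0.125 CPM (counts scaled to library size only) for female B, the deepest library, and 0.191 for male C, the shallowest, for counting error only.

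The Slit ligands were low. Slit2 was at 0.502, 0.429 and 0.312 RPKM in females A to C and 0.318, 0.390 and 0.299 RPKM in males A to C, a mean of 0.375 ± 0.0802 RPKM. Slit1, with a mean of 0.145 ± 0.105 RPKM, had the highest CV of the tested members at 72.3%, on 6 to 43 reads per library. Slit3 was at 0.128 ± 0.0560 RPKM. None of the 3 reached 1 RPKM in any library.

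Within each family, neighbours in the order of mean level were compared over the 6 libraries on the log2(RPKM + 0.1) scale. Of 30 such pairs, 15 kept the same order in 6 of 6 libraries, and in 11 of them the ranges did not overlap. The 11 were Epha7 over Epha5, Ephb6 over Ephb2, Ephb3 over Ephb4, Efna5 over Efna2, Efna3 over Efna4, Efnb2 over Efnb3, Ntng1 over Ntng2, Unc5d over Unc5c, Unc5b over Unc5a, Robo2 over Robo1 and Robo1 over Robo3. In a sign-flip permutation test over libraries, exact and two-sided, each of the 15 gave p = 0.031, the smallest that 6 libraries allow. The adjusted p was 0.0625 (Benjamini-Hochberg over 30 pairs), so that none passed 0.05 after adjustment. The order was drawn from the same 6 libraries, so pairs and direction came from the tested values and the test cannot bear out the order. For Robo1 over Robo3 the outcome was fixed, as Robo3 had no read. The largest separations were Efna5 over Efna2 by 3.84 ± 0.608 and Robo2 over Robo1 by 3.65 ± 0.545. Neighbours that did not differ beyond their spread included Efna1 and Efna5 (Efna1 higher in 5 of 6 libraries, exact p = 0.156), Efnb1 and Efnb2 (3 of 6), Ephb2 and Ephb3 (3 of 6), Efna2 and Efna3 (4 of 6) and Neo1 and Unc5d (4 of 6). In the order over all families, Efna5 over Robo2, Robo2 over Ephb6 and Efna3 over Ephb2 were the only 3 of 37 neighbouring pairs whose ranges did not overlap. The first and last of these rest on division by gene length. In total reads Robo2 (20067) exceeded Efna5 (18196), and Ephb2 (1663) exceeded Efna3 (756). Gene length also entered the order within families. Ephb6 exceeded Ephb2 in total reads (2261 against 1663) but not in female A (180 against 182). Efna5 (18196) exceeded Efna1 (9368) in total reads.

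Set side by side, the sums of ligands and of receptors differed in direction between the systems, given as a description with no test. The ephrin-A ligands summed to 84.9 ± 16.7 RPKM and the EphA receptors to 7.03 ± 1.64 RPKM, a ratio between 8.40 in female A and 24.0 in male C. The ephrin-B ligands summed to 8.83 ± 2.20 RPKM and the EphB receptors to 7.03 ± 1.81 RPKM, with a log2 ratio of 0.33 ± 0.18. The 4 matched netrins summed to 0.783 ± 0.302 RPKM and the netrin receptors to 6.99 ± 1.10 RPKM, a log2 ratio of −3.29 ± 0.71. Most of that netrin sum, 90.8% on average, was Ntng1 and Ntng2, which are not ligands of these receptors. The secreted netrins Ntn1 and Ntn4 alone summed to 0.0657 ± 0.0210 RPKM, a log2 ratio of −6.79 ± 0.40 to the DCC, neogenin and UNC5 receptors. With the row at the Ntn3 position added, that ratio was −2.59 ± 0.38. The netrin-G genes summed to 0.717 ± 0.287 RPKM against 12.9 ± 1.78 RPKM for Lrrc4 and Lrrc4c, a log2 ratio of −4.32 ± 0.84. Each of these netrin ratios was below 0 in 6 of 6 libraries, and their size turned on which netrins were counted. The Slits summed to 0.648 ± 0.164 RPKM against 10.7 ± 2.02 RPKM for the Robos, a log2 ratio of −4.07 ± 0.43.

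The sorted cells thus held more ligand than receptor message for the ephrin-A class and more receptor than ligand message for the secreted netrins and the Slits in 6 of 6 libraries, and ephrin-B sums that were 1.08 to 1.42 times the EphB sums. Efna1 and Efna5 alone made up 83.1% of all ligand signal (74.5% to 89.1% by library). Over all members the ligands summed to 95.2 ± 15.7 RPKM and the receptors to 31.7 ± 3.49 RPKM, a log2 ratio of 1.58 ± 0.33. The difference of medians, ligand minus receptor on the log2(RPKM + 0.1) scale, had the same sign in 6 of 6 libraries within each system, at 2.57 for ephrin-A, 1.61 for ephrin-B, −2.38 for netrin and −1.60 for Slit. Over the whole set it was not so: the median ligand minus the median receptor was 0.29 ± 0.39 and changed sign between libraries, from −0.22 to 0.75. When reads were not divided by gene length (CPM) the log2 ratio turned to −0.20 for the ephrin-B class and to −0.21 over all members, while the ephrin-A, netrin and Slit directions held.

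**Figure D2:**
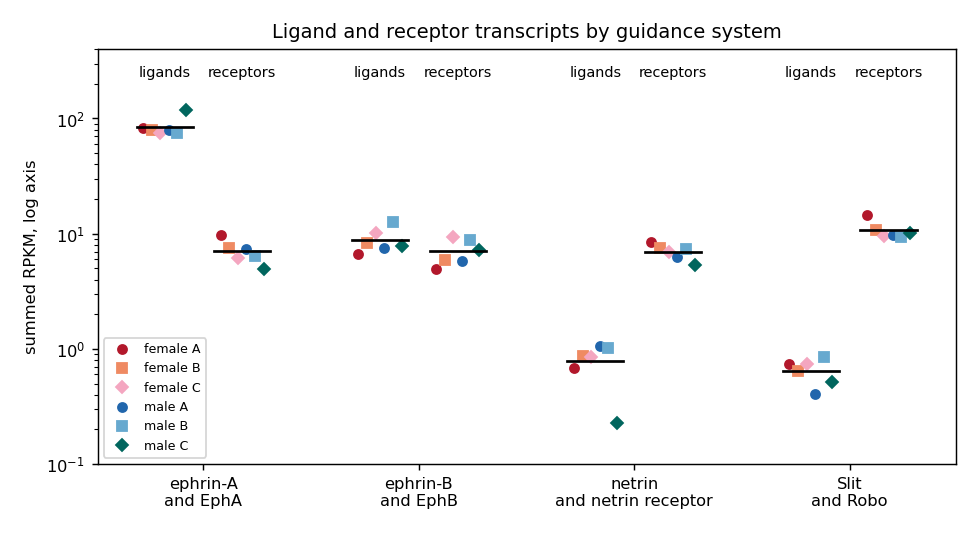
Summed level of ligands and of receptors in each of the 4 systems, in RPKM on a log axis, with 1 symbol per library and a bar for the mean. Ligands lie above receptors for ephrin-A and EphA (84.9 against 7.03 RPKM on average) and below them for the netrins (4 genes, mostly Ntng1, against the DCC, neogenin and UNC5 receptors) and the Slits.

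Of 68 pathway genes that are not members, 55 (80.9%) had a mean of at least 1 RPKM, against 28% of all genes in the table. They were 42 of 48 genes listed for signalling from these receptors, the GTPases included, and 13 of 20 other ligands, receptors and co-factors. The 5 highest were Tubb3, a neuronal tubulin that binds netrin receptors, at 2153 ± 504 RPKM, the small GTPase Cdc42 at 469 ± 53.2 RPKM, Maged1, a partner of UNC5 receptors, at 277 ± 35.9 RPKM, the small GTPase Rhoa at 106 ± 13.9 RPKM and the actin regulator Cap1 at 56.2 ± 8.41 RPKM. The lowest was Mmp9, a metalloprotease, with 3 reads in all. Among other ligands and co-factors, Adam10, a protease that cleaves ephrins and Eph receptors, was at 38.5 ± 2.99 RPKM, Rgmb, a ligand of neogenin, at 20.6 ± 2.30 RPKM, and Nell2, a further Robo ligand, at 13.7 ± 1.41 RPKM. Chn1, which links EphA4 to Rac, was at 25.5 ± 4.10 RPKM. Nell2 thus lay above each of the Slits in all 6 libraries, and Rgmb above each of the netrins. Rgma, Draxin and Ntn5, of the same list of other ligands and co-factors, were low, at 0.287, 0.760 and 0.0638 RPKM.

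The members differed in how much they moved between libraries. Over the 29 tested members the median CV was 32.6%, against 20.96% over all 15026 tested genes, and 21 of the 29 lay above that value. The tested members had a lower median level, 0.868 RPKM against 3.93 RPKM, and the part of low counts in their CV was not tested. The library that held the lowest value was male C in 14 of 29 members (48.3%), against 22.9% of all tested genes. The 14 were Efnb2, Efnb3, Ntng1, Slit2, Neo1, Unc5b, Unc5c, Robo1, Epha2, Epha3, Epha4, Epha5, Epha6 and Epha10. The median deviation of the members from their own mean was −0.27 (log2) in male C and −0.01 for all tested genes there, while Efna1, Efna5 and Ephb2 were highest in that library.

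Male C was also the library with 1 embryo and the fewest reads. Genes of large-diameter neurons (Ntrk2, Ntrk3, Runx3, Pvalb, Nefh) summed to 21.7 RPKM in male C. In the other 5 libraries they summed to 33.1 to 44.6 RPKM. Pvalb was at 0.841 RPKM in male C and 4.56 to 11.3 RPKM elsewhere. Ntrk3, Runx3 and Nefh were also lowest in male C, but Nefh, at 17.6 RPKM, was close to female A at 17.8 RPKM. Ntrk2 was not lowest there, and at 2.45 RPKM it lay above female A and male A. The summed blood genes were also lowest in male C, at 28.6 RPKM beside 29.7 RPKM in female A. The fibroblast sum there, 150 RPKM, was close to that of female B, 153 RPKM. The sum of endothelial and pericyte genes was highest in male C through the pericyte gene Pdgfrb, at 6.55 RPKM, and Rgs5, at 11.2 RPKM. Among the endothelial genes only Kdr was lowest there, at 0.0555 RPKM. Pecam1 and Tek were lowest in male B, Cdh5 in female A and Cldn5 in male A. The part of all these cell types in the low values of the 14 members was not tested. Without male C the median CV of the tested members was 25.7%, against 19.3% over all tested genes.

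Deviations also moved with base composition. Across the 29 tested members, the GC percentage of the longest transcript correlated with the deviation in each library with r = −0.67 in female A, −0.49 in female B, 0.62 in female C, −0.39 in male A, 0.55 in male B and 0.34 in male C. Across 14938 tested genes with a known GC content, r had the same sign in every library, at −0.58, −0.26, 0.50, −0.31, 0.44 and 0.15. These are correlations across genes of 1 library, which share its preparation and depth, and carry no test. GC-rich members such as Ephb6 (59.4% GC), Efnb1 (58.2%) and Efna2 (58.5%) were lowest in female A and highest in female C or male B, and the AT-rich Epha7 (41.7%) and Robo2 (42.4%) were highest in female A. Epha10, at 59.5% GC, went the other way and was highest in female A. The part of base composition in the spread of single members was not tested.

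**Figure D3:**
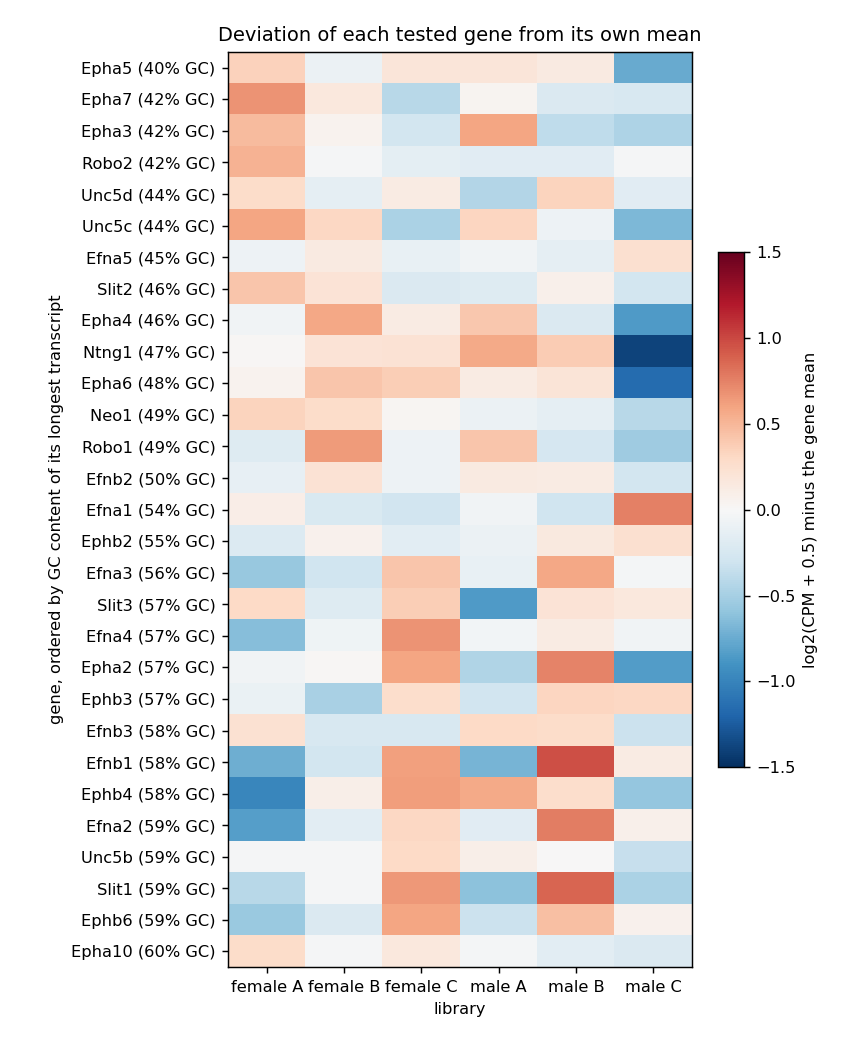
Heat map of the deviation of each of the 29 tested guidance genes (rows, ordered by GC percentage from the lowest at the top) from its own mean, in each library (columns), on the log2(CPM + 0.5) scale, red above and blue below the mean. GC-rich genes are mostly blue in female A and red in female C and male B, and male C is blue for most genes in the upper part, with Ntng1 and Epha6 the darkest.

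The labels set female against male, and no guidance gene passed the test for a sex difference. In edgeR's quasi-likelihood test 5 of 15026 genes (0.0333%) passed an adjusted p of 0.05 (Benjamini-Hochberg), and none of the 29 tested members was among them. At an unadjusted p under 0.05 there were 166 genes, 1.1% of those tested, and again 0 of 29 members. DESeq2 and limma-voom also called 0 members. Replicates are libraries of one sex from separate collections of ganglia as far as the labels tell, and p-values measure the spread between these libraries.

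By direction, 19 of 29 members had a higher estimate in females and 10 in males, with a median log2 fold change of 0.15, against −0.005 and 49.1% higher in females over all tested genes. The estimates split by family: all 7 tested EphA receptors, all 4 tested netrin receptors, both tested Robos and all 3 Slits were higher in females, and all 4 tested EphB receptors were higher in males, also with RLE or upper-quartile factors, DESeq2 and limma-voom. Signs turned when 1 library was left out: without male C, Epha2 (−0.06), Epha3 (−0.08) and Epha5 (−0.01) were lower in females, and without female A, Ephb4 (0.29) and Ephb6 (0.15) were higher in females. Slit1 turned without female C (−0.52), male A (−0.34) or male C (−0.24), Robo1 without female B (−0.08), and Slit3 (−0.02) and Unc5d (−0.01) without male A. Further turns were Epha3 without female A (−0.12) or male B (−0.07), Epha2 without female C (−0.03), Ephb4 without male A (0.24), and Ephb6 without female B (0.03) or male B (0.15). None of these single differences passed the test, and 14 of the 29 members kept their sign under every alternative run. Of the 14 members whose lowest library was male C, 13 had the higher estimate in females, all but Efnb3. Choosing genes by a low male library lowers their male mean, so this direction is largely set by the choice. For neither count was the share over all tested genes computed.

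Neo1 came nearest to a difference, at 24.5 ± 2.65 CPM in females and 18.2 ± 2.23 CPM in males (SD, n = 3 each). Its log2 fold change was 0.43, standard error 0.20 (unadjusted 0.0535, Benjamini-Hochberg adjusted p = 0.9997 in edgeR). Robo2 (0.26, standard error 0.20), Epha7 (0.34, standard error 0.26) and Efna1 (−0.34, standard error 0.27) followed in order of p. Each leaned on 1 library: without female A the estimates of Robo2 and Epha7 were 0.03 and 0.03, and without male C that of Efna1 was 0.04. The sexes did not overlap in 2 of 29 members, Neo1 and Epha10, against 5.7% of all tested genes. Without female C, Epha7 (log2 fold change 0.57) and Neo1 (0.51) passed the unadjusted threshold of 0.05, each with an edgeR adjusted p of 0.782. Without male B so did Epha2 (1.38), with an edgeR adjusted p of 0.9997. More genes passed this threshold in these runs over the whole table too. They were 802 of 15276 without female C and 469 of 15279 without male B, against 166 of 15026 with all libraries. No member had an adjusted p below 0.782 under any alternative.

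**Figure D4:**
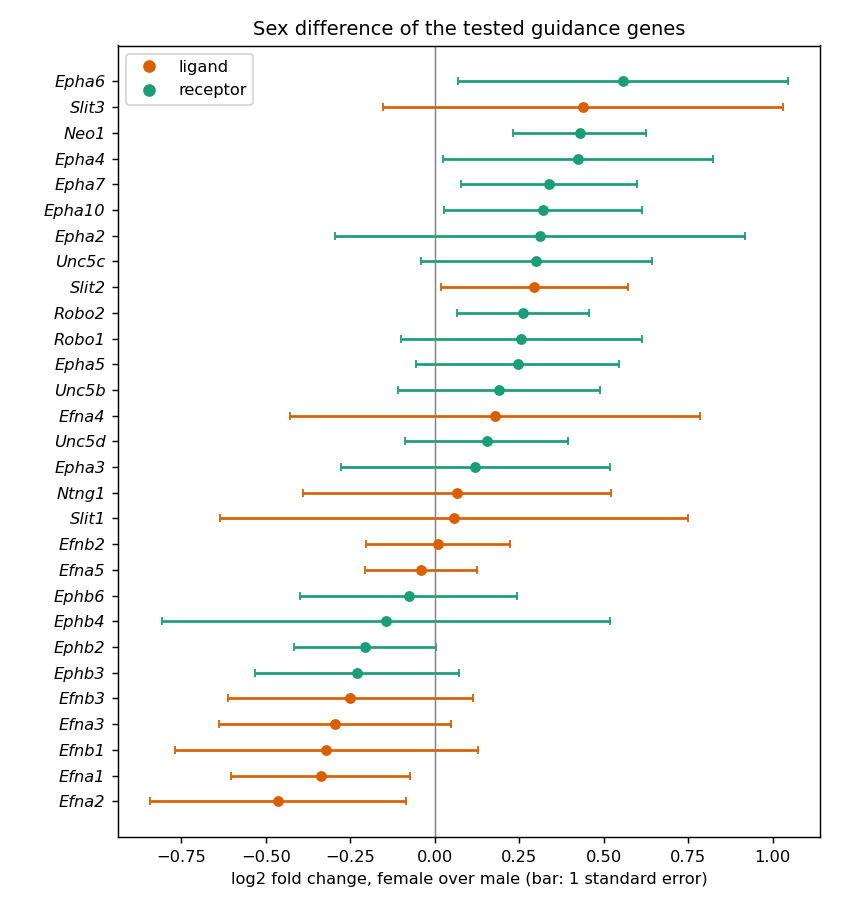
Log2 fold change of female over male for the 29 tested guidance genes, with bars of 1 standard error from edgeR, ligands and receptors in different colours. Estimates run from −0.46 in Efna2 to 0.56 in Epha6, and Neo1, at 0.43, is farthest from 0 in units of its error.

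Among the pathway genes 65 were tested, of which 39 were higher in females and 26 in males. None passed the adjusted threshold in edgeR. Only Srgap2, which encodes a Robo-binding GTPase-activating protein, fell under the unadjusted threshold of 0.05, with a log2 fold change of 0.49, standard error 0.22 (edgeR, Benjamini-Hochberg adjusted p = 0.9997).

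The members also shared features of gene structure. Of the 38 matched members, 20 (52.6%) spanned more than 100 kb, 13 receptors and 7 ligands, against 14.2% of the tested genes. The median span was 124968 bases over the members, 154369 bases over receptors and 58465 bases over ligands, against 22246 bases over tested genes. High levels were found at long and short spans: Efna5 covers 277134 bases at chr17:62604184-62881317 and Robo2 519520 bases at chr16:73892306-74411825, while Efna1 covers 9410 bases at chr3:89271733-89281142, and the longest gene, Dcc, was among the lowest. Chromosome 16 carried 5 members (Epha3, Epha6, Ephb3, Robo1 and Robo2), as did chromosome 4 (Epha2, Epha7, Epha8, Epha10 and Ephb2) and chromosome 3 (Efna1, Efna3, Efna4, Ntng1 and Unc5c). Robo1 and Robo2 lie near each other on chromosome 16, with means of 0.719 and 9.96 RPKM.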

How the data were processed

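Total RNA from the sorted cells was amplified with a low-input cDNA kit and sequenced, per the labels' protocols. The deposited table of each library gives raw read counts per Ensembl gene with the gene's length, and the authors' CPM and RPKM values, per the file headers; only the counts and lengths were used for the values given here. The submitters' processing notes name Subread, featureCounts 1.4.5 and GRCm38.p2, and the strand setting is not stated in the sources used here. The deposited CPM and RPKM were used only as a check of the scale.

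Symbols were matched through a table of gene identifiers, which covered 97.26% of the 41388 rows. Levels were recomputed as RPKM from counts, deposited length and library sizes scaled with TMM, and log values used a pseudocount of 0.1 RPKM. The sex comparison was fitted on the whole table with edgeR 4.0.16 in R 4.3.3 (TMM, filterByExpr, quasi-likelihood test, Benjamini-Hochberg over 15026 genes) without covariates, after tests on simulated data. DESeq2 1.42.0 and limma 3.58.1 (voom) were alternatives, as were other scalings and filters, a replicate block, the number of embryos as a covariate, and leaving out each library. The members and lists were chosen with earlier results of these data known. The rule for named genes was all members, and of the pathway list the 5 highest, the lowest and the gene of smallest p for sex; further pathway and marker genes were named after their values were seen. Neighbouring pairs numbered 30 because the Ntn3 identifier was not matched. Promoter windows came from RefSeq (GRCm38.p6).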

Additional observations from a re-analysis of the deposited data

Results flagged for a closer look

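In 3 of the 38 matched members 1 of the 6 libraries lay apart from the rest. The rule was Dixon's 95% criterion for a single extreme value, which flags about 1 in 20 groups by chance. Robo3, with 0 reads in each library, could not be flagged. The rule was applied to members only, so the share over all tested genes is not known. Efna1 was at 70.5 RPKM in male C, with the next library at 44.7 RPKM. Epha6 was at 0.0764 RPKM in male C, with the next at 0.298 RPKM, on 6 reads. Robo2 was at 14.1 RPKM in female A, with the next at 9.70 RPKM.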

How the results depend on the processing

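With total counts or RLE factors as library sizes, the mean of each of the 38 members moved by less than 1 SD. With a threshold of 0.5 RPKM in place of 1, 20 members passed. On the sex comparison, no filter on low counts gave 12 genes called in place of 5, and leaving out 1 library gave 0 to 2 members at an unadjusted p under 0.05. Over all tested genes, the runs without 1 library gave 94 to 802 genes under that threshold. In CPM in place of RPKM, the log2 ratio of summed ligands over receptors was 1.96 for ephrin-A, −0.20 for ephrin-B, −4.55 for Slit and −0.21 over all members, and the difference of medians was 1.22 for ephrin-A, 0.91 for ephrin-B and −4.20 for netrin, since CPM leaves out gene length. The netrin log2 ratio of −3.29 was −6.79 with secreted netrins only and −1.93 with the row at the Ntn3 position added to all netrins, both chosen after seeing the data. With a pseudocount of 1 the differences of medians were 1.4 for ephrin-A, 1.07 for ephrin-B, −0.69 for netrin and −0.54 for Slit, as a larger pseudocount draws low values together. With the letter of the library as a replicate block, 5 genes and 0 members were called. The letters do not pair the samples: deviations correlated at 0.284 for A, −0.294 for B and −0.077 for C, and female C correlated best with male B (0.549). Depth limits the 9 members left out by the count filter, whose totals over the 6 libraries were 51 reads or fewer.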
